A study of Rattus norvegicus with 24 samples.

Results

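The comparison described here is the step from 0.1 to 1 µg/kg/day of 17β-estradiol in the mammary glands of male rats. It uses the arrays whose gender label is male and whose dose label is 0.1 (3 arrays, numbered 4, 5 and 6) or 1 (3 arrays, numbered 7, 8 and 9), which are 6 of the 24 arrays of the series, and it covers all 31042 probe sets tested. The study infused male and female Sprague-Dawley rats with estradiol at 0, 0.1, 1 or 10 µg/kg/day and profiled their abdominal glands on Affymetrix rat arrays, with 3 arrays for each sex and dose. The hormone came from osmotic pumps under the skin, from weaning on postnatal day 21 to collection on postnatal day 33, and the labels file the dose under a diet tag although the design text names pumps. All groups used here share the strain, the age and the pump, and by their labels differ only in sex and dose. The labels mention no transgene and no removal of the gonads. They do not say whether an array stands for 1 rat. The p-values therefore reflect how far arrays of a group lie apart, and some of that distance may be technical. Values of the same step in females, and of the next male step from 1 to 10, which shares the 3 arrays at 1, are given beside those of the male step.

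Estradiol acts through estrogen receptor alpha, encoded by Esr1, a transcription factor that binds DNA as a pair of subunits. In the pubertal mammary gland its best known epithelial target is Areg, which encodes amphiregulin, a membrane-anchored ligand that is shed and acts on the epidermal growth factor receptor of the neighbouring stroma. Pgr, the progesterone receptor, and Greb1, a cofactor of the estrogen receptor, are other standard targets. The gland of the male rat has ducts in a fat pad but no nipple.

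Promoters of 3 genes are shown, chosen by their place in the results. The gene 6330403K07Rikl is the only annotated gene that passed the test, Areg is the estrogen target with the largest difference, and Scg2 is the gene with the smallest p-value among those lower at 1. Each window is RefSeq sequence of the rat assembly GRCr8, from 250 bases before to 50 bases after the start of the gene, read on the gene's strand. The windows lie at chr10:56255689-56255988 (minus strand) for 6330403K07Rikl, chr14:17265592-17265891 (minus strand) for Areg and chr9:88256817-88257116 (minus strand) for Scg2. Capitals mark matches to the searched motifs.
6330403K07Rikl: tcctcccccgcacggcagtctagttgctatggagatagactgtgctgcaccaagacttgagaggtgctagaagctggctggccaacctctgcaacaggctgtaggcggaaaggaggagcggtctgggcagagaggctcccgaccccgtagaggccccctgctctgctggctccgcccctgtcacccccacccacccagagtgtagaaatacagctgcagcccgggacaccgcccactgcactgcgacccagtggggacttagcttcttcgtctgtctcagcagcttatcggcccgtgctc
Areg: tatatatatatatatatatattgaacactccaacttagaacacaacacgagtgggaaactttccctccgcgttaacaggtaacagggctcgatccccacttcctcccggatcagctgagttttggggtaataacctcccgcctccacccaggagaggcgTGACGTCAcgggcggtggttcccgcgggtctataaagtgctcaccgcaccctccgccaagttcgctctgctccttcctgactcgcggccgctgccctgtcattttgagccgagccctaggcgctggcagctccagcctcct
Scg2: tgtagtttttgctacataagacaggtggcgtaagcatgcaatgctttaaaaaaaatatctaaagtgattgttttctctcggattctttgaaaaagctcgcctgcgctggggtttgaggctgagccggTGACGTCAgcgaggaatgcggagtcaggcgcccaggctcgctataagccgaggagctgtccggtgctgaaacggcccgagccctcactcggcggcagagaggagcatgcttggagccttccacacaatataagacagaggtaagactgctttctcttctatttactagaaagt

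The motifs were searched on both strands. They were the full estrogen response element (GGTCA and TGACC with any 3 bases between them), its 5-letter arm GGTCA, which the full element contains, and the cAMP response element TGACGTCA. The full element stood in 9 of 33465 rat promoter windows (0.0269%), GGTCA in 40.5% and TGACGTCA in 1.83%. The Areg window held TGACGTCA 91 bases before the start site, and the Scg2 window held it 123 bases before the start site. The window of 6330403K07Rikl held none of these letters. Of the 12 annotated genes with the smallest p-values among those higher at 1, 10 had a window, and GGTCA was present in those of Egr2, Wnt9a and Clca1. Of the 12 with the smallest p-values among those lower at 1, 10 had a window, and GGTCA was present in those of Akt2 and Myo1c. The full element was in none of these 20 windows, and TGACGTCA was in 1 of them, that of Scg2. These are matches of letters in a short window and describe neither binding nor distant sites.

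Array medians over all 24 arrays lay between -0.0176 and 0.0132, and the SD over probe sets within an array lay between 0.19 and 0.253 in the 6 arrays compared. The deposited values are centred for each probe set within each sex. A male value of 0 is therefore close to the middle of the male arrays, the table holds no absolute level, and the presence of mammary markers could not be checked. Differences are given as log2 differences, 1 minus 0.1, with the standard error (SE) of the fit, and folds assume that the log base is 2.

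In the male gland, 4 of 31042 probe sets differed between 1 and 0.1 µg/kg/day at a limma adjusted p under 0.05 (0.0129%), and all 4 rose. Only 1 of the 4 has a gene in the platform annotation, 6330403K07Rikl, a gene named after a mouse cDNA clone. Their differences ran from 1.40 to 2.84 on the log2 scale, and in each the 3 arrays at 1 lay above the 3 arrays at 0.1. Before adjustment 1200 probe sets had a p under 0.05, 641 higher and 559 lower, where 1552 would be expected by chance. The median difference over all probe sets was -0.0033, and 174 probe sets differed by at least 1 in size.

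Probe set 1392295_a_at, which has no gene in the annotation, had centred log2 values of -1.87, -1.07 and -1.77 at 0.1 and of 1.07, 1.18 and 1.57 at 1. The groups did not overlap, and the lowest array at 1 stood well above the highest at 0.1. The difference was 2.84 ± 0.35 (SE, n = 3 arrays per dose, limma adjusted p = 0.00491), a 7.18-fold rise with a 95% confidence interval from 4.3 to 12. In the males at 10 the same probe set read 3.09, 3.36 and 2.81, so that the 3 doses formed separate bands, and the step from 1 to 10 was 1.81 ± 0.35 (limma adjusted p = 0.0305). In females the step from 0.1 to 1 was 0.05.

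Probe set 1376806_at, also without a gene, read -1.83, -0.71 and -1.17 at 0.1 and 0.71, 0.92 and 0.97 at 1. The 3 arrays at 1 lay close together while those at 0.1 were spread, with replicate 4 the lowest. The difference was 2.10 ± 0.29 (limma adjusted p = 0.00891), a 4.3-fold rise with an interval from 2.84 to 6.51. At 10 the values were 2.28, 2.41 and 2.35, above all arrays at 1, and this step was 1.48 ± 0.29 (limma adjusted p = 0.0302).

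6330403K07Rikl, whose promoter is printed above, read -1.12, -0.55 and -0.77 at 0.1 and 0.65, 0.55 and 0.56 at 1. Replicate 4 was again the lowest array, and the groups did not overlap. The difference was 1.40 ± 0.20 (limma adjusted p = 0.0158), a 2.64-fold rise with an interval from 1.96 to 3.55. At 10 it read 1.15, 1.56 and 1.40, and the step from 1 to 10 was 0.78 ± 0.20, which did not pass (limma adjusted p = 0.117).

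Probe set 1374859_at, without a gene, read -1.48, -0.51 and -0.78 at 0.1 and 0.52, 0.56 and 0.87 at 1. Its order of arrays at 0.1 was the same as in 6330403K07Rikl, with replicate 4 lowest and replicate 5 highest. The difference was 1.57 ± 0.25 (limma adjusted p = 0.0371), a 2.98-fold rise with an interval from 2.07 to 4.28. The values at 10 were 1.37, 1.55 and 1.46, and the step from 1 to 10 was 0.81 ± 0.25 (limma adjusted p = 0.205).

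**Figure D1:**
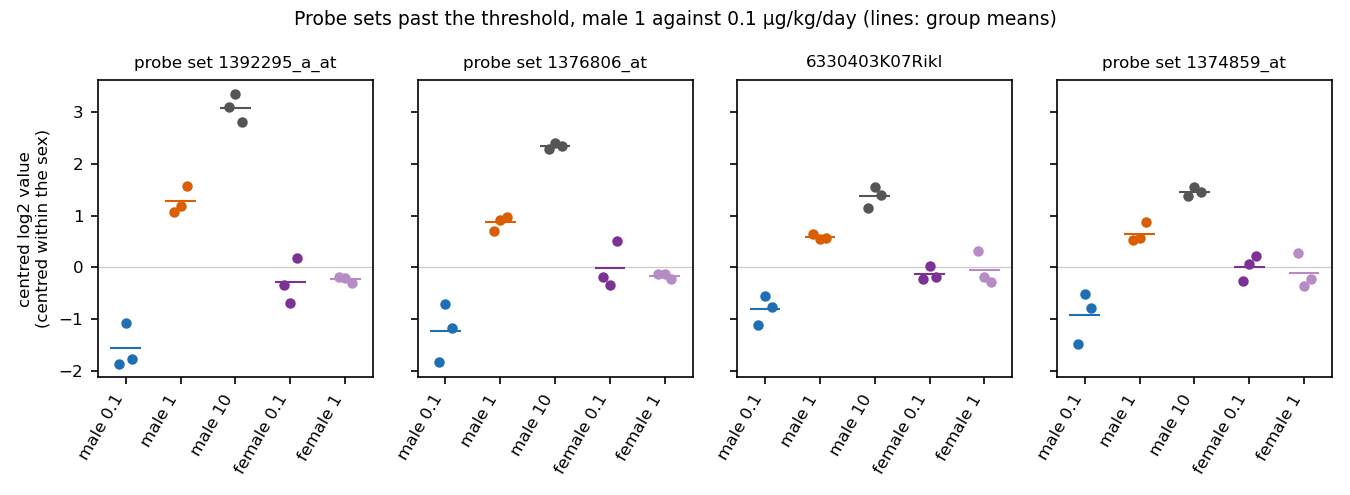
Centred log2 values (vertical axis, centred within the sex) of the 4 probe sets past the threshold, with 1 point per array, lines at group means, and males at 0.1, 1 and 10 and females at 0.1 and 1 on the horizontal axis. In each panel the 3 male arrays at 1 lie above the 3 at 0.1 and below the 3 at 10, while the female groups overlap.

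The number of calls ranged from 0 to 4 when single arrays were left out, which leaves 2 arrays at that dose. In limma it was 0 without male 0.1 replicate 4 (smallest adjusted p 0.0761, with 1399 probe sets at an unadjusted p under 0.05). It was also 0 without male 0.1 replicate 6 (0.0639, with 872) and without male 1 replicate 9 (0.0784, with 959). It was 2 without male 1 replicate 7, 1 without male 1 replicate 8 and 4 without male 0.1 replicate 5. Probe set 1392295_a_at was the call left without replicate 8, and together with 1376806_at it made up the calls left without replicate 7. A fit of the 6 arrays alone called 0 probe sets, with a smallest limma adjusted p of 0.0524 and 2236 probe sets at an unadjusted p under 0.05. A fit without the dose 0 arrays of either sex called 6 probe sets, the same 4 and in addition Pcdh10, which rose, and Scg2, which fell. The 3 probe sets next in order of p had no gene either, at adjusted p of 0.0786 (1394179_s_at), 0.0839 (1371910_at) and 0.085 (1383456_at).

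Among annotated genes, each taken by 1 probe set, 1 of 14217 was called (0.00703%). The arrays of the 2 doses did not overlap for 2006 genes (14.1%), of which 873 were higher at 1 (6.14%) and 1133 lower (7.97%). The median difference over these genes was -0.00665, with quartiles at -0.0893 and 0.0697. The genes that follow had the smallest p-values in each direction and, apart from 6330403K07Rikl, none passed the test, so their values are a description.

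Pcdh10, a protocadherin that mediates cell adhesion, read 0.00, 0.31 and 0.40 at 0.1 and 1.64, 1.46 and 1.58 at 1. The arrays at 1 were tightly grouped and far above those at 0.1. The difference was 1.32 ± 0.24 (limma adjusted p = 0.085), a 2.5-fold higher value with an interval from 1.77 to 3.52. At 10 the values were 0.00, -0.03 and -0.02, back within the range at 0.1 or just under it, and the step from 1 to 10 was -1.58 ± 0.24 (limma adjusted p = 0.00492). Of these 3 doses Pcdh10 was therefore highest at 1, and the fall from 1 to 10 passed the test. The step from 0.1 to 1 passed without the dose 0 arrays (adjusted p = 0.0153) and after quantile normalization (adjusted p = 0.00927). With array weights it passed as well (adjusted p = 0.0107). It did not pass with the compared arrays alone, robust eBayes, the replicate block or the luminal, beta-actin or hepatocyte and muscle covariates. Nor did it pass without the arrays of high hepatocyte mean, or when any single male array at 0.1 or 1 was left out.

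Spon1, Flrt2 and Has2 are named higher genes that act at the cell surface or in the matrix. Spon1, which encodes the matrix protein spondin 1, read -0.40, -0.28 and -0.34 at 0.1 and 0.49, 0.37 and 0.39 at 1, a difference of 0.76 ± 0.14 (adjusted p = 0.102). Its groups were narrow and did not overlap. Flrt2, a leucine-rich repeat transmembrane protein of cell adhesion, read -0.33, -0.47 and -0.64 at 0.1 and 0.18, 0.42 and 0.10 at 1, a difference of 0.71 ± 0.14 (adjusted p = 0.119). Has2, a synthase of hyaluronan, read -0.17, -0.11 and -0.05 at 0.1 and 0.33, 0.34 and 0.60 at 1, a difference of 0.54 ± 0.13 (adjusted p = 0.471). For these genes every array at 1 stood above every array at 0.1. Flrt2 had a further difference of 0.71 from 1 to 10 (limma adjusted p = 0.0271), while this step was -0.06 for Spon1 and -0.20 for Has2.

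Transcription and signalling genes among the higher ones included Egr2, a zinc finger factor also known for its role in myelinating Schwann cells. Egr2 read -1.08, -0.31 and -0.58 at 0.1 and 0.66, 0.31 and 0.49 at 1, a difference of 1.14 ± 0.22 (adjusted p = 0.102). A second probe set of Egr2 gave 0.42, so the size depends on the probe set. Wnt9a, a Wnt ligand, differed by 0.46 ± 0.10 (adjusted p = 0.42) and Gpr37, a G protein-coupled receptor, by 1.12 ± 0.25 (adjusted p = 0.431). Serpinb9, the inhibitor of granzyme B, differed by 0.82 ± 0.16 (adjusted p = 0.162), and its other probe set also gave 0.82. Nap1l3, of the nucleosome assembly protein family, differed by 0.94 ± 0.21, and C2h3orf80 by 1.25 ± 0.27. Their arrays did not overlap between the doses.

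Clca1, which encodes a secreted protein of mucus-producing epithelia, had the largest difference of the named genes, with widely spread arrays. It read -3.15, -2.26 and -0.49 at 0.1 and 0.49, 2.40 and 2.27 at 1, a difference of 3.68 ± 0.87 (adjusted p = 0.471). The gap between the groups was set by replicate 6 at 0.1 and replicate 7 at 1, which lay nearest to each other. A second probe set of Clca1 gave 3.91.

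Scg2, which encodes secretogranin II of dense-core secretory vesicles, led the genes that were lower at 1. It read 1.91, 1.07 and 1.20 at 0.1 and -0.06, -0.10 and 0.24 at 1. The arrays at 0.1 were all above those at 1, with replicate 4 the highest. The difference was -1.37 ± 0.30 (adjusted p = 0.361). At 10 it read -0.21, -0.01 and -0.13, close to the arrays at 1. Scg2 passed without the dose 0 arrays (adjusted p = 0.0153) and with the beta-actin 3′ to 5′ difference as a covariate (difference -1.86, adjusted p = 0.00331). It also passed after quantile normalization (difference -1.77, adjusted p = 0.00914) and with array weights (difference -1.2, adjusted p = 0.0346). It did not pass with the compared arrays alone, robust eBayes, the replicate block or the luminal or hepatocyte and muscle covariates. Nor did it pass without the arrays of high hepatocyte mean, or when any single male array at 0.1 or 1 was left out.

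The other named lower genes differed by less than 1 on the log2 scale. Hsd11b1, the enzyme that makes active glucocorticoid from its inactive form, read 0.01, 0.20 and -0.01 at 0.1 and -0.65, -0.35 and -0.58 at 1, a difference of -0.59 ± 0.15 (adjusted p = 0.517). Akt2, a kinase of insulin signalling, differed by -0.61 ± 0.15 (adjusted p = 0.516), and its 3 other probe sets gave -0.29, 0.09 and -0.17. Apaf1, a core protein of the apoptosome, differed by -0.36 ± 0.09 (adjusted p = 0.526). Babam2, a subunit of a BRCA1-containing complex, differed by -0.44 ± 0.11 and Dapk2, a calmodulin-regulated kinase, by -0.41 ± 0.10. Myo1c, an unconventional myosin, differed by -0.43, Kcnd3, a potassium channel, by -0.44, Yipf3, a Golgi protein, by -0.39, and Ms4a6a by -0.42. Folr1, the folate receptor that is also a mammary secretory gene, differed by -0.28 ± 0.08, and Phgdh, an enzyme of serine synthesis, by -0.38 ± 0.10. Each had groups that did not overlap, and for Ms4a6a, Babam2, Dapk2, Kcnd3, Apaf1, Myo1c and Yipf3 every other probe set differed by at most 0.21 in size.

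**Figure D2:**
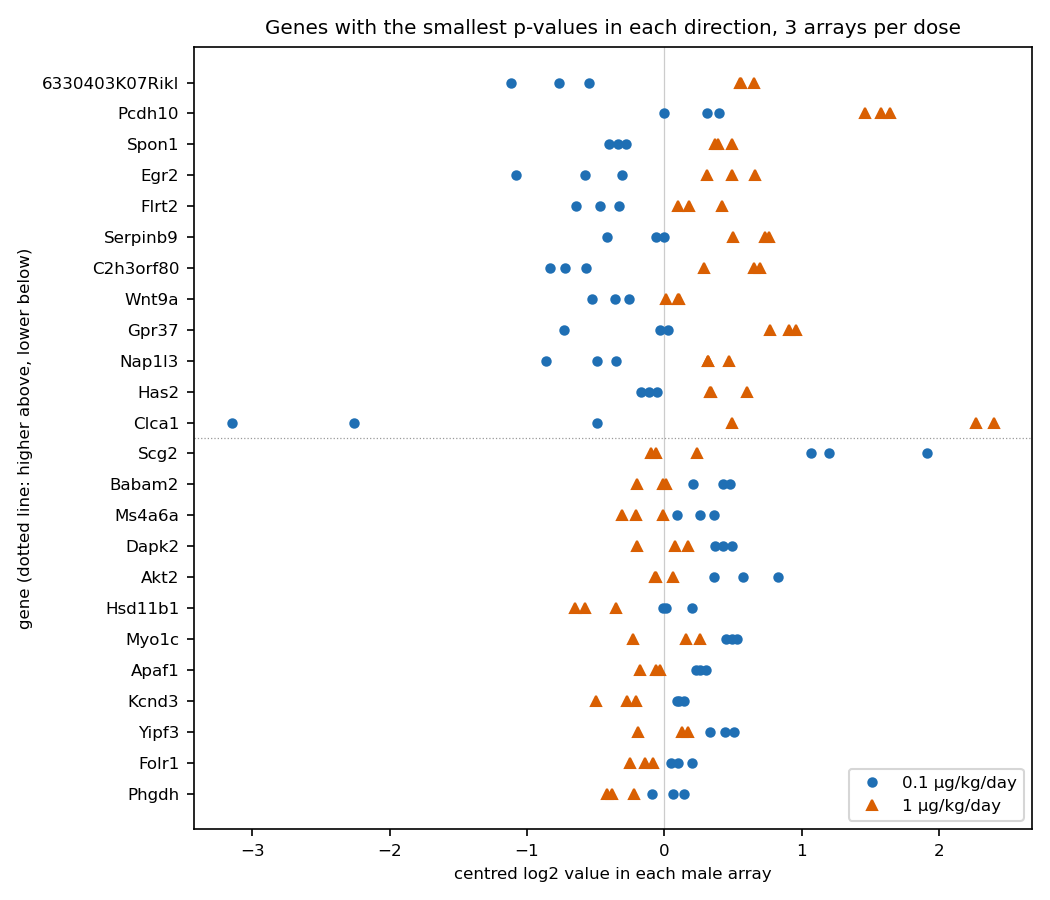
Centred log2 values (horizontal axis) in each of the 3 male arrays at 0.1 (circles) and the 3 at 1 (triangles) for the 12 higher and 12 lower genes with the smallest p-values (vertical axis, dotted line between them). The groups of each gene are separate, the gap is widest in 6330403K07Rikl and Pcdh10 among the narrow groups, and Clca1 has the widest spread.

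Estrogen receptor targets were covered by a list of 23 genes, of which 21 were measured. None passed the test over all probe sets. The arrays did not overlap for 6 targets in the higher direction (all genes 6.14%) and for 1 in the lower direction (all genes 7.97%), and the list's median difference was 0.04 against -0.00665 over all genes. Areg, Greb1, Pgr and Rerg had the largest differences of the list, from 0.86 to 1.87, and the other members lay between -0.56 (Igfbp5) and 0.31 (Myb).

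Areg read -1.62, -0.70 and -0.69 at 0.1 and 0.69, 0.71 and 1.19 at 1. Every array at 1 was above every array at 0.1, with replicate 4 the lowest. The difference was 1.87 ± 0.44 (adjusted p = 0.471), which corresponds to 3.65-fold with an interval from 1.92 to 6.93. At 10 the values were 3.02, 3.32 and 2.75, and the step from 1 to 10, at 2.17 ± 0.44, passed (limma adjusted p = 0.0415). The male values of Areg thus stood in the order of the doses from 0.1 to 10, with only the upper step past the threshold.

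Greb1 had the same order. It read -0.81, -0.79 and -0.79 at 0.1 and 0.32, 0.62 and 0.65 at 1, a difference of 1.33 ± 0.37 (adjusted p = 0.652). At 10 the values were 2.78, 2.52 and 2.30, and the step from 1 to 10 was 2.0 ± 0.37 (limma adjusted p = 0.0217). The second probe set of Greb1 gave 0.10 for the step from 0.1 to 1.

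Pgr read -0.83, -0.38 and -0.49 at 0.1 and 0.38, 0.75 and 0.74 at 1, a difference of 1.19 ± 0.32 (adjusted p = 0.632). At 10 it read 1.65, 2.35 and 1.40, a further 1.18 (adjusted p = 0.144). Neither step passed, and at each step the higher dose had the higher arrays without overlap. Rerg, an estrogen-regulated Ras-like GTPase, read -0.61, -0.43 and -0.46 at 0.1 and 0.39, 0.24 and 0.45 at 1, a difference of 0.86 ± 0.21 (adjusted p = 0.472). Esr1 itself read 0.16, 0.13 and 0.28 at 0.1 and 0.03, -0.03 and -0.13 at 1, a difference of -0.23 ± 0.18 (adjusted p = 1). Igfbp5, which binds insulin-like growth factors, was the non-overlapping target in the lower direction, at -0.56 ± 0.25. All 5 probe sets of Igfbp5 had the same sign, and 1 of the others was at -0.09 with overlapping arrays. Targets familiar from breast cancer cells were near 0, with Tff1 at -0.07 ± 0.14, Xbp1 at 0.09 ± 0.14 and Myc at -0.07 ± 0.22. Ccnd1, cyclin D1, was at 0.29 ± 0.19.

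The epidermal growth factor list, with 20 of 21 genes measured, shares Areg with the target list. It had 3 non-overlapping members in the higher direction (all genes 6.14%), Areg, Egfr and Tgfa, and 0 in the lower (all genes 7.97%). The median of this list was 0.04. Egfr, the receptor of amphiregulin, read -0.18, -0.35 and -0.41 at 0.1 and 0.51, 0.13 and 0.19 at 1, a difference of 0.59 ± 0.14 (adjusted p = 0.476). Its groups did not overlap, 1 further probe set gave 0.57 and the other -0.01. Tgfa, another ligand of this receptor, differed by 0.38 ± 0.23. The ligands Ereg, Btc and Hbegf lay at 0.04 ± 0.11, -0.13 ± 0.11 and -0.01 ± 0.26, and Erbb3 and Erbb4, receptors of the same family, at -0.01 and 0.02.

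Hormone signalling downstream of estrogen was mixed. The progesterone and prolactin list had all 16 of its genes measured, with a median of -0.10. It had 3 non-overlapping higher (all genes 6.14%) and 4 lower (all genes 7.97%). Prlr, the prolactin receptor, read -0.78, 0.03 and 0.04 at 0.1 and 0.65, 0.53 and 0.58 at 1, a difference of 0.83 ± 0.26 (adjusted p = 0.832), with replicate 4 far below the other arrays at 0.1. Its other probe sets gave 0.64, without overlap, and 0.09, with overlap. Wnt4, a progesterone target in mammary epithelium, differed by 0.50 ± 0.22. Tnfsf11, which encodes the paracrine factor RANKL, differed by -1.12 ± 0.70, Cish by -0.62 ± 0.23, Socs3 by -0.36 ± 0.13 and Stat5b by -0.25 ± 0.09. The last 3 belong to the cytokine pathway that prolactin also uses, and none passed.

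Milk genes gave no common direction, with 17 of 20 measured and a median of 0.00. Without overlap, 2 were higher (all genes 6.14%) and 3 lower (all genes 7.97%). Csn2, beta-casein, read -0.44, -0.19 and 0.11 at 0.1 and 0.75, 0.89 and 1.23 at 1, a difference of 1.13 ± 0.77 (adjusted p = 1), and Csn3, kappa-casein, differed by 0.38 ± 0.40. Wap, whey acidic protein, was at -0.39 ± 0.67 and Lalba, alpha-lactalbumin, at 0.00 ± 0.27.

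Of 18 receptors and enzymes of steroid action, 15 were measured and none passed the test. There were 0 non-overlapping higher (all genes 6.14%) and 4 lower (all genes 7.97%), namely Hsd11b1, Esr1, Sts and Esr2, and the median was -0.12. The growth hormone and IGF list, with 16 of 17 genes measured, had 1 non-overlapping higher and 3 lower beside the same all-gene shares. Its median was -0.05, with Igfbp3 at -0.52 ± 0.24 and Igf1 at -0.15 ± 0.19. The androgen-responsive list, with 9 of 12 measured, had a median of -0.02. In the glucocorticoid and FOXO list (15 of 18 measured, median -0.08), Dusp1, a phosphatase of MAP kinases, read 1.28, 0.76 and 0.84 at 0.1 and -0.25, 0.68 and 0.21 at 1, a difference of -0.75 ± 0.22 (adjusted p = 0.792). In the next step Dusp1 fell by 1.03 (limma adjusted p = 0.0499), and replicate 8 at 1 lay just under the arrays at 0.1. A second probe set of Dusp1 gave -0.36 from 0.1 to 1, and its arrays overlapped.

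In the collagen and stromal matrix list, 25 of 26 genes were measured and none passed the test. Differences were positive for 15 genes and negative for 10, 7 were higher without overlap (all genes 6.14%) and 1 was lower (all genes 7.97%), and the median was 0.01. Without replicate 4 there were 12 higher without overlap (all genes 12.9%) and the median was 0.07. Leaving out any other single array gave 7 to 9 (all genes 9.14% to 11.3%) and medians from -0.03 to 0.06. Tnc, which encodes tenascin C, a matrix protein of remodelling tissue, read -0.69, -0.92 and -0.59 at 0.1 and 0.91, 0.49 and 1.04 at 1, a difference of 1.55 ± 0.38 (adjusted p = 0.476). The groups were separated by more than their own ranges. Thbs2, thrombospondin 2, differed by 0.59 ± 0.16, Fn1, fibronectin, by 0.33 ± 0.10, Vcan, versican, by 0.34 ± 0.13, and Postn, periostin, by 0.24 ± 0.06. The fibrillar collagens Col1a1, Col1a2 and Col3a1 lay at -0.05 ± 0.08, -0.04 ± 0.07 and 0.04 ± 0.05. Col15a1, a basement membrane collagen, was the non-overlapping lower member, at -0.38 ± 0.16.

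Matrix proteases and their inhibitors, with 19 of 22 measured, had 6 non-overlapping higher (all genes 6.14%), 1 lower (all genes 7.97%) and a median of 0.06. Mmp11, stromelysin 3, read -0.80, -0.38 and -0.15 at 0.1 and 0.54, 1.00 and 0.89 at 1, a difference of 1.26 ± 0.36 (adjusted p = 0.712). Mmp3, stromelysin 1, read -0.91, -0.29 and -0.47 at 0.1 and 0.46, 0.43 and 1.26 at 1, a difference of 1.27 ± 0.38 (adjusted p = 0.778). For both genes the arrays of the doses were separate. Plat, tissue plasminogen activator, differed by 0.43 ± 0.13 and the inhibitor Timp1 by 0.39 ± 0.13, whereas Mmp2 was at 0.06 ± 0.13.

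The Wnt list, with 24 of 26 measured, had a median of 0.01. It divided into 5 non-overlapping higher (all genes 6.14%) and 6 lower (all genes 7.97%). The receptor Fzd8 read 0.20, 0.04 and -0.03 at 0.1 and -0.29, -0.43 and -0.20 at 1, a difference of -0.38 ± 0.11 (adjusted p = 0.694). The receptor Fzd1 went the other way, at 0.49 ± 0.16 (adjusted p = 0.91). Axin2, a feedback target of the pathway, was at -0.11 ± 0.13. In the fibroblast list, with 16 of 18 measured, 4 were higher (all genes 6.14%) and 2 lower (all genes 7.97%) without overlap. The list's median was 0.14. Msx2, a homeobox factor, differed by 0.70 ± 0.27 and the growth factors Fgf7 and Fgf10 by -0.44 ± 0.17 and 0.32 ± 0.19. Other probe sets of Msx2 gave 0.45 and 0.01.

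Differences of proliferation genes were small. Of 37 cell cycle genes written, 34 were measured, 8 were higher without overlap (all genes 6.14%) and 0 lower, 32 had a positive difference and the median was 0.11. Without replicate 5 at 0.1 there were 20 higher without overlap (all genes 11.3%) and a median of 0.15. Without replicate 8 at 1 there were 18 (all genes 11.1%) and a median of 0.14. Leaving out any other single array gave 8 to 10 (all genes 9.14% to 12.9%) and medians from 0.09 to 0.12. With all arrays the largest difference was that of Mki67, at 0.27 ± 0.22, and none reached an unadjusted p under 0.05. Mcm5, a helicase subunit, read -0.08, 0.02 and -0.11 at 0.1 and 0.16, 0.04 and 0.14 at 1, a difference of 0.17 ± 0.11. The same list had a median of -0.33 in the female step.

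Most epithelial markers had positive differences, none of which passed, and replicate 4 at 0.1 stood apart in them. Of 20 luminal markers measured of 22, 18 had a positive difference, and the median was 0.27. Without overlap, 3 were higher (all genes 6.14%) and 0 lower (all genes 7.97%). The mean of the luminal list was -0.39, 0.38 and 0.37 in replicates 4, 5 and 6 at 0.1 and 0.29, 0.36 and 0.57 in replicates 7, 8 and 9 at 1. Replicates 5 and 6 were thus level with the arrays at 1. Without replicate 4 the luminal median was 0.01, with 12 of 20 differences positive, and the basal median was 0.03. The basal and myoepithelial list, with 15 of 19 measured, had 3 higher (all genes 6.14%) and 1 lower (all genes 7.97%) without overlap. Its median was 0.17, and its array means were -0.34, 0.36 and 0.36 at 0.1 and 0.17, 0.41 and 0.48 at 1. Krt7, a luminal keratin, read -0.58, 0.43 and -0.14 at 0.1 and 0.45, 0.81 and 0.87 at 1, a difference of 0.81 ± 0.25 (adjusted p = 0.829). Krt14, a basal keratin, differed by 0.59 ± 0.40 and Epcam by 0.42 ± 0.32. Oxtr, the oxytocin receptor of myoepithelium, was lower without overlap, at -0.61 ± 0.22. With the luminal mean as a covariate, a choice made after seeing the data, 5 probe sets were called, the same 4 and 1383456_at. In whole glands fewer cells of a type and less RNA per cell cannot be told apart.

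White adipocyte genes had negative differences in all but 1 case, and none passed the test. Of 20 measured of 21, 19 had a negative difference, 16 were lower without overlap (all genes 7.97%) and 0 higher, and the median was -0.38. Leaving out single male arrays kept the median between -0.45 and -0.32 and at least 16 of the 20 genes lower without overlap, where the smaller groups gave up to 17.7% over all genes. The array means of the list were -0.08, 0.20 and 0.18 at 0.1 and -0.29, -0.23 and -0.34 at 1. The smallest p-values were those of Adrb3 and Lep. Adrb3, the beta-3 adrenergic receptor, read 0.19, 0.10 and 0.16 at 0.1 and -0.54, -0.83 and -0.31 at 1, a difference of -0.71 ± 0.20 (adjusted p = 0.722). From 1 to 10 Adrb3 fell by a further 0.99 (limma adjusted p = 0.0429). Lep, leptin, read 0.56, 0.77 and 0.74 at 0.1 and -0.01, 0.01 and -0.39 at 1, a difference of -0.82 ± 0.24 (adjusted p = 0.722). Both genes had separate groups. Dgat2, an enzyme of triglyceride synthesis, was at -0.63 ± 0.21, Pparg, the master regulator of adipocytes, at -0.46 ± 0.18, and Fabp4 and Adipoq, abundant adipocyte genes, at -0.12 ± 0.08 and -0.17 ± 0.13. Cfd, adipsin, was the only positive member, at 0.15 ± 0.11. In the female step the list's median was 0.38, and in the male step from 1 to 10 it was -0.50.

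Medians of the other lipid lists were smaller in size. Lipogenesis had 13 of 14 genes measured, all with a negative difference, 2 lower without overlap (all genes 7.97%) and a median of -0.22. Its array means of -0.67, 0.09 and 0.19 at 0.1 spanned those of -0.26, -0.33 and -0.61 at 1. Without replicate 4 the median was -0.58 and 11 of the 13 genes were lower without overlap (all genes 17.7%), whereas without replicate 5 it was -0.09 and without replicate 6 it was -0.12. Fasn, fatty acid synthase, was at -0.22 ± 0.36 and Srebf1, its transcriptional regulator, at -0.27 ± 0.17. Cholesterol genes (17 of 23 measured) had a median of -0.08 with 2 lower without overlap (all genes 7.97%). Fatty acid oxidation genes (17 of 18) had a median of -0.06 with 2 higher without overlap (all genes 6.14%). Brown fat genes (9 of 10) had none without overlap and a median of 0.10, and Ucp1 was at 0.10 ± 0.31.

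Lymphocyte markers had negative differences, none of which passed, with 1 array far below the rest. All 14 measured T cell markers of 17 had a negative difference, 12 were lower without overlap (all genes 7.97%) and the median was -0.95. The array means of the list were 0.16, 0.58 and 0.48 at 0.1 and -0.16, -1.14 and -0.15 at 1, so that replicate 8 was lowest. Without replicate 8 the median was -0.61, with 13 genes lower without overlap (all genes 14.3%). Cd3e, a chain of the T cell receptor complex, differed by -1.04 ± 0.97 and Lck, its proximal kinase, by -0.91 ± 0.69. Of the 14 T cell genes only Cd4, at -0.25 ± 0.11, had an unadjusted p under 0.05. The T cell mean also differed between arrays of the same dose outside this comparison. It ran from -1.83 to 1.2 in females at 0.1, from -0.19 to 0.79 in males at 10 and from -0.13 to 0.16 in females at 1. The B cell list, with 12 of 18 measured, had 2 lower without overlap (all genes 7.97%) and a median of -0.49. Its array means were 0.11, -0.06 and 0.54 at 0.1 and -0.02, -0.85 and 0.09 at 1. Without replicate 8 the B cell median was -0.16. In the next step, which shares the arrays at 1, the medians were 1.00 for T cells and 0.91 for B cells.

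Macrophage markers (15 of 19 measured) had none without overlap and a median of -0.03. Endothelial markers (14 of 16) had 1 lower without overlap (all genes 7.97%), Esam, and a median of -0.08. Mast cell and eosinophil markers (15 of 17) had a median of 0.02, with 1 higher (all genes 6.14%) and 2 lower without overlap. Csf1r, the receptor that maintains macrophages, was at 0.02 ± 0.14 and Pecam1, of endothelium, at -0.02 ± 0.11. Chemokines and their receptors (21 of 24) had 3 lower without overlap (all genes 7.97%) and a median of -0.22. Ccl7 was at -0.46 ± 0.18 and Cxcl12 at -0.25 ± 0.10. Schwann cell genes, with 13 of 16 measured, had 3 positive differences, Egr2 among them, 10 negative ones and a median of -0.10, with S100b at -0.42 ± 0.17 and Sox10 at 0.23 ± 0.28.

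The remaining lists had medians from -0.10 to 0.02. Immediate early genes (19 of 20) had 4 positive and 15 negative differences and a median of -0.10. Fos was at -0.30 ± 0.27 and Egr1 at -0.10 ± 0.21 beside the higher Egr2. Amino acid transporters (20 of 20) had a median of 0.02, with Slc7a3 at 0.66 ± 0.21 (adjusted p = 0.832). Interferon response genes (18 of 20) had a median of -0.01. Hypoxia and stress genes (17 of 18) had 4 positive and 13 negative differences and a median of -0.10. Over all 34 lists, 569 of 645 genes were measured and 0 passed in limma, with a smallest adjusted p of 0.102. At an unadjusted p under 0.05 there were 61 of these 569, beside 627 of all 14217 genes. Because the lists were chosen with earlier results of these data known, these counts are no test of the lists.

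**Figure D3:**
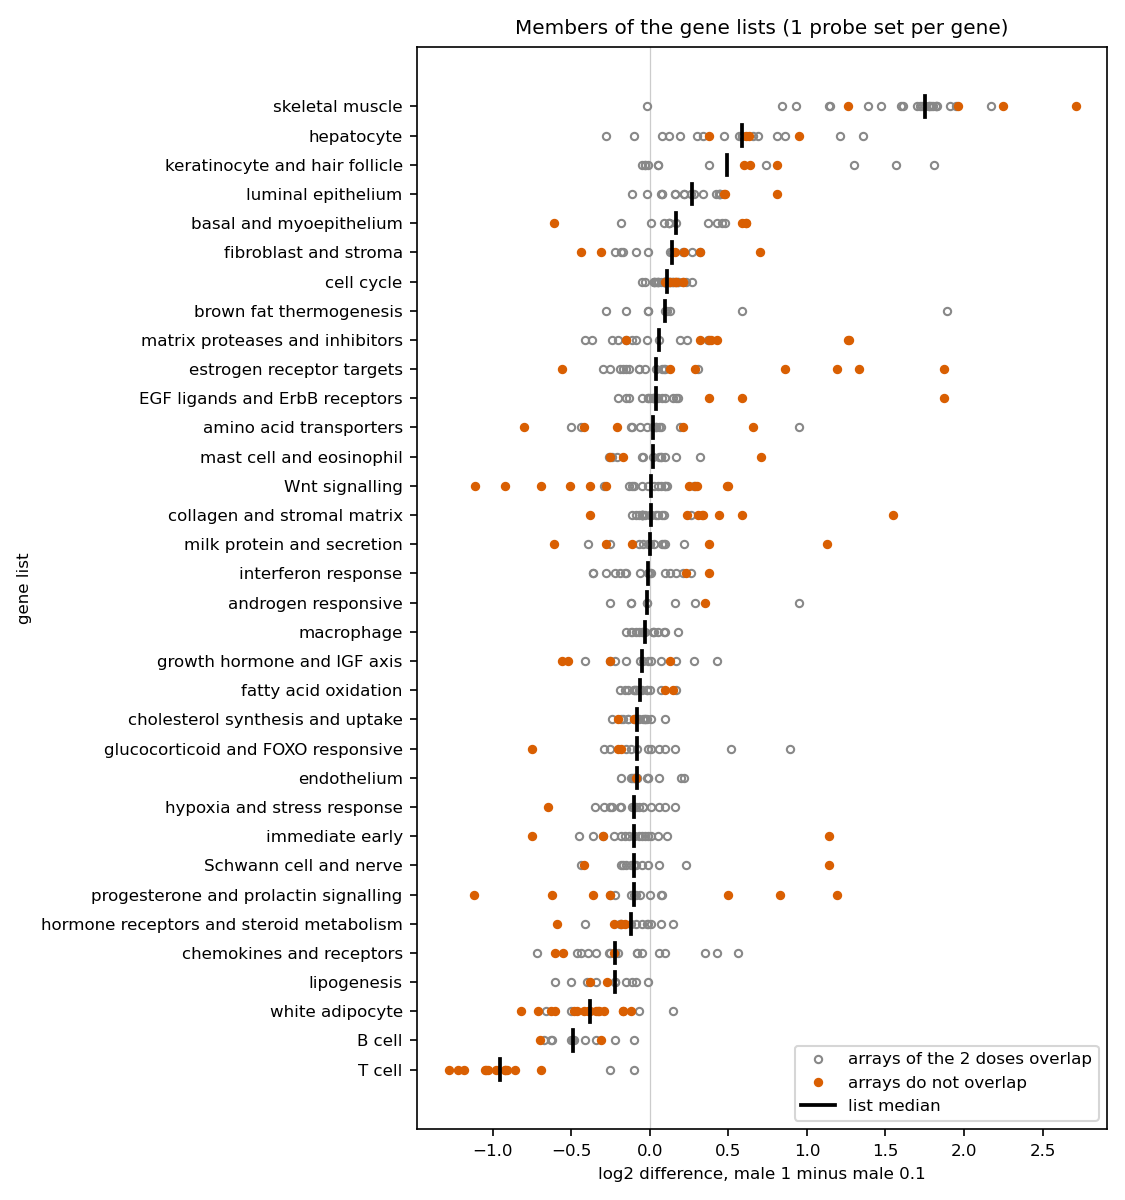
Log2 difference, male 1 minus 0.1 (horizontal axis), of each measured gene of the 34 lists (vertical axis, ordered by median), with filled points where the arrays of the doses do not overlap and a bar at the list median. White adipocyte and T cell genes lie mostly below 0 with filled points, skeletal muscle lies highest with mostly open points, and the estrogen target and matrix lists have a few high members over a median near 0.

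Markers of tissues other than mammary gland differed between arrays of the same dose. Skeletal muscle genes (27 of 28 measured) had 26 positive differences, 4 of them without overlap (all genes 6.14%), and the largest list median, 1.75. Their array means were 0.94, -2.61 and -2.17 at 0.1 and 0.79, 0.79 and -0.55 at 1. Replicate 4 at 0.1 was therefore the highest array for muscle, and the difference between doses came with a large spread, for example 1.78 ± 1.05 for Ckm, muscle creatine kinase. Without replicate 4 the muscle median was 2.96, and 26 of the 27 genes were higher without overlap (all genes 12.9%). Without replicate 5 the muscle median was 0.93, with 4 genes higher without overlap (all genes 11.3%). Hepatocyte genes (21 of 24) had a median of 0.59 and 4 higher without overlap (all genes 6.14%). Their array means were -0.25, 0.00 and -0.20 at 0.1 and 1.09, -0.13 and 0.17 at 1. Without replicate 7 the hepatocyte median was 0.13. Alb, albumin, was at 0.30 ± 0.68. Keratinocyte and hair follicle genes (14 of 18) had 3 higher without overlap (all genes 6.14%), a median of 0.49 and array means of -0.41, -0.20 and -0.17 at 0.1 and 0.82, 0.19 and -0.12 at 1. Without replicate 4 the keratinocyte median was 0.18.

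With the muscle and hepatocyte means as covariates, 15 probe sets were called, 11 higher and 4 lower, and these included the 4 of the comparison. Without the 4 arrays of the series whose hepatocyte mean exceeded 1, among them male 1 replicate 7, 1392295_a_at and 1376806_at were called. The 3′ minus 5′ difference of control probe sets is a sign of RNA degradation. With centred values it compares arrays and gives no absolute degree. For beta-actin it was -0.36, -0.50 and -0.47 at 0.1 and -0.24, -0.36 and -0.15 at 1. For GAPDH it was -0.12, -0.12 and -0.17 at 0.1 and -0.06, -0.16 and -0.04 at 1. For hexokinase it was -0.08, -0.08 and -0.04 at 0.1 and -0.05, -0.22 and 0.06 at 1. With the beta-actin difference as a covariate 2 probe sets were called, 1392295_a_at higher and Scg2 lower. The part of muscle, liver and skin RNA in the differences of the other lists was not tested.

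**Figure D4:**
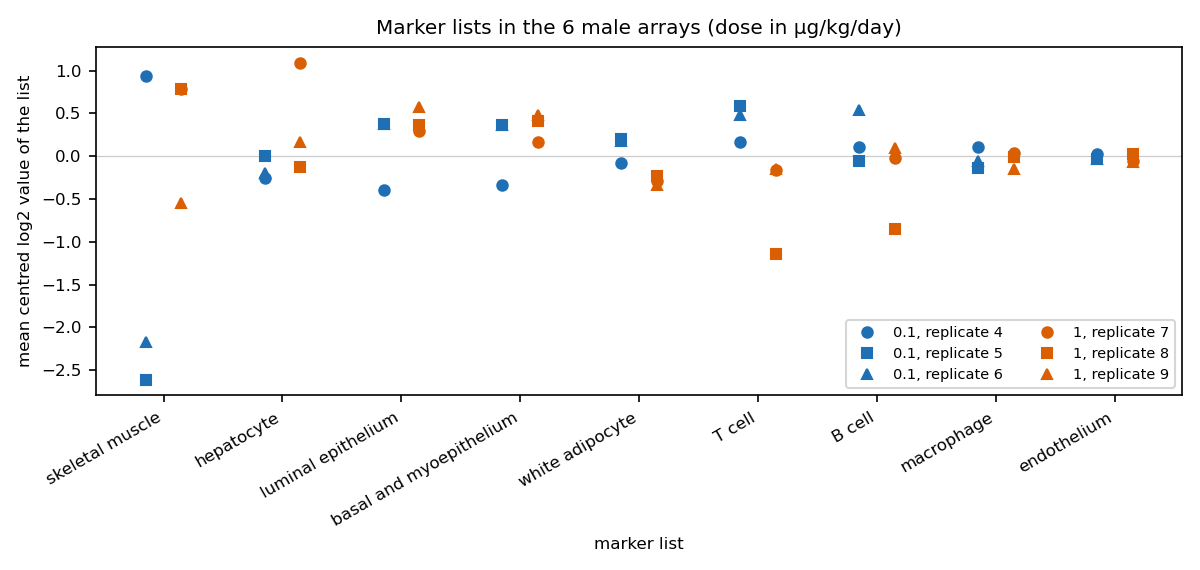
Mean centred log2 value (vertical axis) of 9 marker lists (horizontal axis) in each of the 6 male arrays, coloured by dose with a symbol for each replicate. Muscle spreads from -2.61 to 0.94 among the arrays at 0.1, replicate 4 is low in both epithelial lists, replicate 8 is low in T and B cells, and the white adipocyte means of the 2 doses are separate.

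The step was compared between the sexes as the male difference minus the female difference. In limma, 0 of 31042 probe sets passed, with a smallest adjusted p of 0.233 and 1813 probe sets at an unadjusted p under 0.05. In the female step 4 probe sets passed (0.0129%): Fgf10, a growth factor of the mammary stroma, rose by 1.15, Sned1, a matrix protein, rose by 1.24, 1373699_at without a gene rose by 1.36, and Neto2 fell by 0.67. None of these is among the 4 male calls. The female count was 0 without female 0.1 replicate 6, female 1 replicate 7 or female 1 replicate 8, 2 without female 0.1 replicate 5, 15 without female 0.1 replicate 4 and 18 without female 1 replicate 9. For the 4 male calls the female differences were 0.05, -0.16, 0.07 and -0.12. Their male minus female values were 2.79 ± 0.50 (1392295_a_at) and 2.26 ± 0.40 (1376806_at), both at adjusted p = 0.233, and 1.33 ± 0.29 (6330403K07Rikl) and 1.69 ± 0.35 (1374859_at), both at adjusted p = 0.461. A difference between the sexes was thus not resolved for any of them, although without the dose 0 arrays 1392295_a_at passed (adjusted p = 0.0181). With the muscle and hepatocyte covariates 6330403K07Rikl and 1374859_at passed (both adjusted p = 0.0269).

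Areg had opposite signs in the sexes. In females it read -1.30, 0.87 and 0.57 at 0.1 and -0.47, -1.75 and -0.56 at 1, a difference of -0.97 ± 0.44 (adjusted p = 0.686). The female groups overlapped through replicate 4 at 0.1, which lay low. The male minus female value was 2.84 ± 0.63 (adjusted p = 0.461). Without female 0.1 replicate 4 this became 3.51 and passed (limma adjusted p = 0.0262), and Rnf180, a ubiquitin ligase, passed at 2.66 with the same adjusted p. Leaving out any other single array at 0.1 or 1, male or female, gave 0 probe sets for the difference between the sexes, so Areg did not pass there.

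Col12a1, a collagen of the fibril surface, had the smallest p-value for the difference between the sexes. In males it read -0.16, -0.25 and -0.27 at 0.1 and 0.30, 0.11 and 0.22 at 1, and in females 0.28, 0.19 and 0.18 at 0.1 and -0.02, -0.32 and -0.43 at 1. The groups were separate in both sexes and in opposite order. The male difference was 0.44 ± 0.11, the female difference -0.47, and the male minus female value 0.91 ± 0.16 (adjusted p = 0.233). Its other probe sets gave -0.14 and 0.15 in males. Adamts8, a matrix protease, had a male minus female value of 1.19 ± 0.26 and Aoc3, an amine oxidase of adipocytes and vessels, of -0.98 ± 0.21, both at adjusted p = 0.461. Neto2 at 0.76 ± 0.15 and Dync2i2, a dynein subunit, at 0.46 ± 0.10 owed most of it to the female step, since their male differences were 0.09 ± 0.11 and 0.13 ± 0.07.

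**Figure D5:**
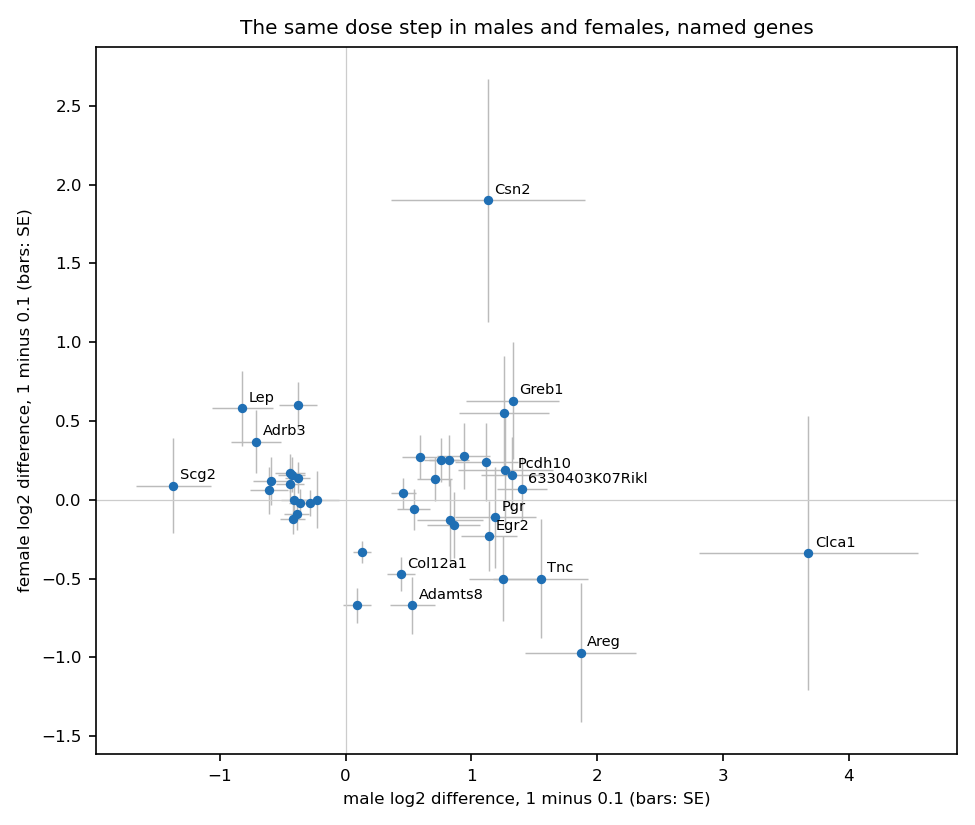
Log2 difference from 0.1 to 1 in males (horizontal axis) against females (vertical axis) for named genes, with bars of 1 SE. Areg, Col12a1 and Adamts8 lie to the right and below 0, Adrb3 and Lep to the left and above 0, and 6330403K07Rikl lies far to the right at a female difference near 0.

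The next male step, from 1 to 10, called 120 probe sets (0.387%), 55 higher and 65 lower. Leaving out single arrays gave 19 without male 1 replicate 9, 27 without replicate 8 and 129 without replicate 7, and 66, 36 and 34 without male 10 replicates 10, 11 and 12. The step shares the arrays at 1 with the step described here, so an array that was high or low at 1 enters both with opposite sign, and the 2 counts were not tested against each other. Of the 4 probe sets called from 0.1 to 1, 1392295_a_at and 1376806_at were also called, higher, from 1 to 10.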

How the data were processed

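RNA of 24 gland samples was labelled with biotin from total RNA, per the labels' protocols. The deposited table holds signed log values made by the authors, taken here as log2. Per the submitters' processing notes GCOS was used, with no version or role stated. How probes were summarized and normalized, and the log base, is not given in the sources used. Values lying nearest 0 on both sides were equal and opposite (tolerance 2e-06) in 41.9% of probe sets over the male arrays and 45.3% over the female arrays. The values were therefore taken as centred within each sex, and how that was done is not given in the sources used. The widest male range, 7.2, is too wide for log10, while natural log cannot be told apart from log2.

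Groups came from the sample titles. Of 31099 probe sets, 57 Affymetrix controls were left out. Through the platform annotation 20826 probe sets named 1 gene each, giving 14217 genes, while 436 named several and 9780 named none. Of the first kind 20758 matched the RefSeq gene table with 0 symbols changed. All 24 arrays were fitted with 8 group means in limma 3.58.1 (R 4.3.3, lmFit and eBayes, 16 residual and 2.95 prior degrees of freedom), with Benjamini-Hochberg adjustment over 31042 probe sets and a threshold of 0.05. No 2 arrays were identical. Of several probe sets for a gene, the most variable around the mean of its sex in the 18 arrays outside the comparison was used, because centred values hold no mean level.

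Named genes were the 12 with the smallest p-values in each direction where fewer passed, up to 2 members of each list, the 6 genes with the smallest p for the sex difference, and Esr1, Pgr, Prlr, Areg, Greb1 and Csn2. Other list members were added as examples after their values were seen. The comparison and the 34 lists were chosen with earlier results of these data known. Alternatives are given in the closing section, and medians of lists without single arrays were added after seeing the data. The number of arrays limits the precision, and the log base and the source of each array's spread are not known here.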

Additional observations from a re-analysis of the deposited data

How the results depend on the processing

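The male count of 4 probe sets became 0 with the 6 arrays alone, 2 without the 4 arrays of high hepatocyte mean, 40 with array weights (34 higher, 6 lower), 18 after quantile normalization (17 higher, 1 lower), 8 after a filter on the SD, 15 with hepatocyte and muscle covariates, 2 with the beta-actin covariate and 30 at an unadjusted p with a 2-fold difference. The 4 calls were among the 40, the 18 and the 15. It was 4 with robust eBayes, 4 with a 2-fold limit, 6 without the dose 0 arrays and 5 with the luminal covariate, and it ranged from 0 to 4 when single arrays were left out. Some of these fits have fewer arrays or probe sets, and otherwise the cause was not tested. The count for the difference between the sexes, 0, became 1 without the dose 0 arrays, 685 with array weights, 4 with hepatocyte and muscle covariates and 89 at an unadjusted p with a 2-fold difference, and it ranged from 0 to 2 when single arrays were left out. Genes of the lists passed in 5 cases with array weights (Areg, Egr2, Rerg, Postn and Hsd11b1) and in 1 with hepatocyte and muscle covariates (Egr2), and in 0 when any single array was left out. The female count of 4 became 0 without the dose 0 arrays, without arrays of high hepatocyte mean and after quantile normalization, 725 with array weights, 2 with hepatocyte and muscle covariates, 1 with the beta-actin covariate, 2 with the luminal covariate and 17 at an unadjusted p with a 2-fold difference, and from 0 to 18 without single arrays. The count from 1 to 10 in males, 120, became 77 without the dose 0 arrays, 845 with array weights, 47 after quantile normalization, 14 with the beta-actin covariate, 338 with the luminal covariate and 40 with a 2-fold limit, and from 19 to 129 without single arrays. The luminal covariate, and all alternatives of these last 2 counts, were chosen after seeing the data. With hepatocyte and muscle covariates the differences of Cox8b (-0.26, from 1.89), Slc38a4 (-0.07, from 0.95) and Tyrobp (0.05, from -0.12) changed sign, none being past the threshold.

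The replicate numbers are shared between the sexes but not between the male doses. Deviations of same-numbered male and female arrays correlated between -0.48 and 0.59, over 0.1 in 5 of 12 pairs. They were 0.44 to 0.59 in the 3 pairs at 0.1 and -0.48 to -0.03 in the 3 pairs at 1. The labels do not say that a number marks a shared litter or day, and not every pair was over 0.1, so the numbers were not used as pairs. With the replicate block as a random effect (consensus correlation 0.106) the male count was 4, the female count 4 and the count from 1 to 10 was 117. Male minus female values per number gave 0 probe sets in limma, with a smallest adjusted p of 0.21. Where an array was left out, its dose kept 2 arrays and the spread was pooled over the groups. Centred values do not show signal over background, so its limit on low genes is unknown.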
